A study of Mus musculus with 6 samples.

Results

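Tox2, Osbpl3, Pde2a and Apobr are 4 of the 27179 genes counted in RNA-seq libraries of germinal center (GC) B cells, selected on their measured counts as much higher in wild-type (WT) than in Il21r-/- cells on every day sampled, outside multigene clusters. They were thus chosen by the genotype difference, which is given here as a description with no test. Spleen cells of WT and Il21r-/- mice, both on the C57BL/6 background, were sorted on days 7, 10 and 14 after intraperitoneal immunization with NP-KLH in alum, NP being a small hapten coupled to the carrier protein KLH. The sort took NP-binding IgG1+ cells that expressed B220, lacked CD38, CD138, IgM, IgD and Gr1, and so were switched GC B cells. There was 1 library for each genotype on each day, 6 in all, so the 3 libraries of a genotype differ in day and are not repeats of a single condition. The labels speak of WT and Il21r-/- mice, whereas the study's general methods state that the mice of nearly all its experiments were irradiated hosts whose blood system had been rebuilt from WT or Il21r-/- bone marrow. By either account the deletion was carried by the T cells as well as the B cells that formed from that marrow, and in irradiated hosts the cells that survive irradiation would still hold the receptor gene. The series' design text speaks of an independent mouse for each sample, while the study describes the day 7 sort as coming from several mice of each genotype, so a library may be a pool and the number of mice behind each one is not settled here. The study's methods also give a total of several mice per genotype from more than 1 immunization. They do not state which immunization supplied which day, so a batch tied to day cannot be told apart from day.

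IL-21 is a cytokine made mainly by T follicular helper cells, and its receptor pairs with the common gamma chain to activate JAK kinases and STAT factors, chiefly STAT3, in GC B cells. The 4 genes belong to unrelated families. Tox2 encodes a nuclear protein with an HMG box, a DNA-binding domain, and is best known from T follicular helper cells. Osbpl3 encodes ORP3, a lipid transfer protein that works at contacts between the endoplasmic reticulum and the plasma membrane. Pde2a encodes a phosphodiesterase that hydrolyses both cAMP and cGMP and is stimulated by cGMP. Apobr encodes a receptor for lipoproteins that carry apolipoprotein B48, known from macrophages.

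Tox2 lies on mouse chromosome 2 (163203058 to 163324172, plus strand, GRCm38), Osbpl3 on chromosome 6 (50293327 to 50456354, minus strand), Pde2a on chromosome 7 (101421691 to 101512829, plus strand) and Apobr on chromosome 7 (126584918 to 126589125, plus strand). Pde2a starts 24.2 Mb below and Apobr 0.982 Mb above the start of Il21r, the gene that was deleted. RefSeq promoter windows of GRCm38.p6 were found for 4 of the 4 genes, 12 windows in all, and the 250 bases before each start were searched on both strands for TTCNNNGAA, a site of the kind bound by STAT factors, for its stricter form TTCCNGGAA, for TGANTCA, an AP-1 site, and for CACGTG, an E-box. Each of these reads the same on both strands, and every TTCCNGGAA is also a TTCNNNGAA. TTCNNNGAA was in 0 of the 12 windows and in 7.02% of all 32851 windows. TTCCNGGAA was also in 0 windows (0.913% of all), as was CACGTG (6.02% of all). TGANTCA was in 1 window, that of Apobr, against 6.75% of all windows. The matches describe these letters in these windows and say nothing of binding. The stretches nearest to the first annotated start of each gene are shown because their base composition differs and because they hold the only match. Bases that lie in an annotated exon were left off, and capitals mark TGANTCA.
Tox2 (chr2:163202877-163203057, plus strand): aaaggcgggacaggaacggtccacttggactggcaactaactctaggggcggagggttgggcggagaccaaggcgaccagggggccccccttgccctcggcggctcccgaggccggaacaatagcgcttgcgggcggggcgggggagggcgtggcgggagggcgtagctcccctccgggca
Osbpl3 (chr6:50456355-50456420, minus strand): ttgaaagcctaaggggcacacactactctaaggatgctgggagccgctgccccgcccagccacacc
Pde2a (chr7:101421441-101421690, plus strand): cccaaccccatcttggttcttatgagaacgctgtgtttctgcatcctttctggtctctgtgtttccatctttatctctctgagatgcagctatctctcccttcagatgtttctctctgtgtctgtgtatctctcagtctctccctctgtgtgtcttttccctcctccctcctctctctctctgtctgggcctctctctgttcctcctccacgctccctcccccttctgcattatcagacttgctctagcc
Apobr (chr7:126584787-126584917, plus strand): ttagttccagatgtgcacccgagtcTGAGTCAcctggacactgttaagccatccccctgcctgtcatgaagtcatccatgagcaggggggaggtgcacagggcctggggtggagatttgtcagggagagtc

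The Tox2 stretch had 71.8% G and C, that of Osbpl3 62.1%, that of Apobr 57.3% and that of Pde2a 50.8%, against a median of 52.4% over all windows. The TGAGTCA of Apobr ended 99 bases before the first annotated start.

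Libraries held 21353438 to 27435124 counted reads. Levels are given as CPM, the reads of a gene per 1000000 reads of a library after TMM normalization. Il21r, used to check the labels, had 343, 261 and 245 CPM in WT on days 7, 10 and 14, and 105, 127 and 112 CPM in Il21r-/-. Il21r was thus lower in the 3 Il21r-/- libraries but not absent, and the gene-level counts do not show which exons the remaining reads came from. The GC B cell markers Bcl6, S1pr2 and Mybl1 were abundant in all 6 libraries, with 2296 reads or more each. Of 12 T cell markers, 9 were too low to test, from Cd8a with 0 to 1 reads in a library to Cd3d with 6 to 15 and Zap70 with 2 to 22, while Thy1 had 14 to 67 and Cd2 and Lck had 1363 or more. Of 11 myeloid markers 7 were too low to test, among them Mpo with 0 reads in all libraries, while Lyz2 had 13 to 70 reads, Csf1r 8 to 64 and Cd68 128 to 254. Of 7 plasma cell markers 5 were tested, and 1 was higher in WT over the 3 days, as the 4 genes were, namely Prdm1 with a log2 ratio of 1.64 (adjusted p = 0.0216, edgeR's quasi-likelihood test), while 1 was lower, Xbp1 (-0.39, adjusted p = 0.0396). The summed level of that list was 2734 to 2913 CPM in WT and 3002 to 3810 CPM in Il21r-/-. Most of it was Jchain, at 2266 to 3289 CPM over the 6 libraries. Of the 2 too low to test, Sdc1 had 18 to 21 reads in WT and 9 to 13 in Il21r-/-. The other, Tnfrsf17, had 10 to 17 in WT and 2 to 14 in Il21r-/-. Whether cells near the plasma cell stage had a part in the level of the 4 genes was not tested. Pax5, Cd68 and Pecam1, from the lists of GC B, myeloid and endothelial cells, were lower in WT. Day was next entered as a replicate block, so that same-day libraries are compared with each other. The 5 of 24 tested markers called above passed again and 9 more did. Bcl6 was higher in WT (log2 ratio 0.25), and Cd2, Adgre1, Irf4 and Jchain were among those lower. The 5 calls were 20.8% of the tested markers, against 5.92% of all genes. Under the block 14 passed, or 58.3% against 22.9% of all genes, 2 higher in WT and 12 lower. Whether a different mix of cells in the libraries had a part in this was not tested.

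Tox2 was low in WT cells on day 7 and several times higher on days 10 and 14, and had few reads without the receptor. The WT libraries held 103, 404 and 336 Tox2 reads on days 7, 10 and 14 and the Il21r-/- libraries 7, 18 and 28. In CPM these were 3.75, 16.3 and 15.6 in WT against 0.303, 0.681 and 1.12 in Il21r-/-. The groups did not overlap, and the lowest WT library was 3.36-fold above the highest Il21r-/- library. The level in WT was 12.4-fold that in Il21r-/- on day 7 (95% counting interval 5.79 to 31.5), 24.0-fold on day 10 (15.0 to 40.8) and 14.0-fold on day 14 (9.51 to 21.4). These and all later counting intervals cover the sampling of reads only, not the variation between mice. The 95% Poisson intervals of WT days 10 and 14 overlapped, as did those of the neighbouring Il21r-/- days, whereas WT day 7 was separate from the libraries next to it in the order.

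Osbpl3 spanned the widest range over time of the 4 genes. WT libraries held 228, 742 and 998 reads on days 7, 10 and 14, and Il21r-/- libraries 21, 50 and 155. The corresponding CPM were 8.29, 29.9 and 46.4 in WT and 0.910, 1.89 and 6.18 in Il21r-/-. The libraries of both genotypes increased in the order of the days, and each differed from the next beyond its counting interval. The groups came close to each other, since WT on day 7 was only 1.34-fold above Il21r-/- on day 14. On the same day the ratio of WT to Il21r-/- was 9.12 on day 7 (5.82 to 15.0), 15.8 on day 10 (11.9 to 21.5) and 7.51 on day 14 (6.34 to 8.95).

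Pde2a ran the other way in time, highest on day 7 and lowest on day 14. WT libraries held 833, 622 and 407 reads and Il21r-/- libraries 142, 140 and 42. In CPM these were 30.3, 25.1 and 18.9 in WT and 6.15, 5.29 and 1.67 in Il21r-/-. This order of days held in both genotypes, and the lowest WT library was 3.08-fold above the highest Il21r-/- library. The ratio of WT to Il21r-/- was 4.93 on day 7 (4.12 to 5.93), 4.74 on day 10 (3.94 to 5.74) and 11.3 on day 14 (8.21 to 15.9). Only the Il21r-/- libraries of days 7 and 10 had overlapping intervals among neighbours in the order.

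Apobr had few reads, at the 1.09th percentile of mean CPM among the genes tested. WT libraries held 57, 61 and 25 reads and Il21r-/- libraries 3, 4 and 3. In CPM these were 2.07, 2.46 and 1.16 in WT against 0.130, 0.151 and 0.120 in Il21r-/-. The lowest WT library was 7.68-fold above the highest Il21r-/- library, the widest gap of the 4 genes. The same-day ratios were 16.0 on day 7 (5.19 to 79.6), 16.3 on day 10 (6.04 to 61.6) and 9.72 on day 14 (2.97 to 50.3), with intervals so wide that no order of the days could be read from them. Neighbouring libraries of the same genotype had overlapping intervals throughout.

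**Figure D1:**
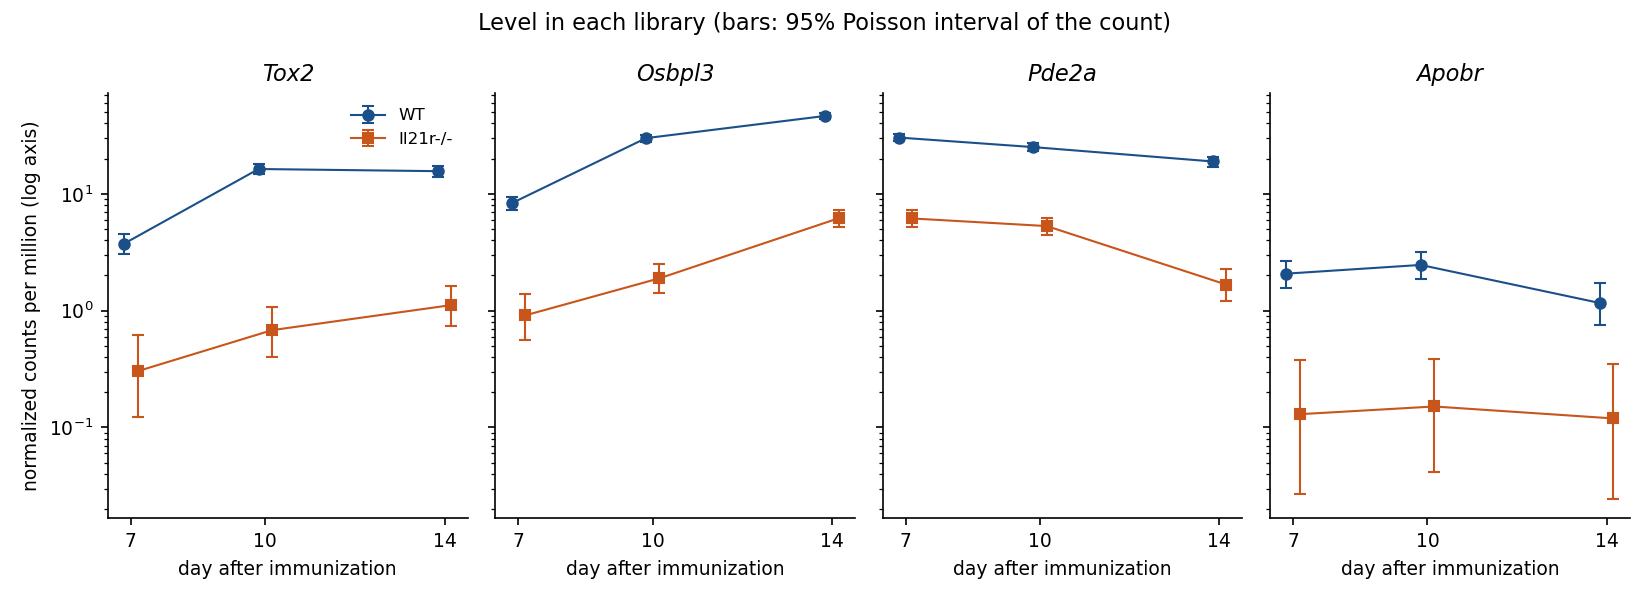
Level of the 4 genes in each library in CPM (vertical, log axis) against day after immunization (horizontal), with WT as circles, Il21r-/- as squares, and bars for the 95% Poisson interval of the count. Each WT point lies above every Il21r-/- point of the same gene, closest for Osbpl3 (8.29 CPM in WT on day 7 and 6.18 CPM in Il21r-/- on day 14).

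Fitted over the 3 days with a linear effect of day, the log2 ratio of WT to Il21r-/- was 4.10 (SE 0.45) for Tox2, 3.37 (SE 0.26) for Osbpl3, 2.59 (SE 0.23) for Pde2a and 3.76 (SE 0.48) for Apobr. For reference, edgeR's quasi-likelihood test called 651 of 11005 genes over the 3 days, or 5.92% of them, 154 higher in WT and 497 higher in Il21r-/-, at an adjusted p (Benjamini-Hochberg) of 0.05. With day as a replicate block 2519 genes passed, or 22.9%. All 3 WT libraries were above all 3 Il21r-/- libraries in CPM for 8.33% of the genes tested, as they were for the 4 genes, whose choice used the same values, so nothing is read from it. In bulk libraries, fewer cells that express a gene and less RNA in each cell cannot be told apart.

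The members were placed among all genes by the smallest of their 3 day-wise log2 ratios, the value that stands closest to the rule that chose them. Tox2 ranked 3rd at 3.61, Apobr 4th at 3.23, Osbpl3 5th at 2.91 and Pde2a 8th at 2.24. Only 11 genes exceeded 2 on this scale, while 25.4% of genes were higher in WT on all 3 days. Above Tox2 stood Gm1966 (4.96) and Trim12a (4.18), and between Osbpl3 and Pde2a stood Trim5 (2.87) and Trim34a (2.58), which encode proteins of the TRIM family. Just below Pde2a came Atp10b (2.21), encoding a phospholipid flippase, and Tent5c (2.01), encoding a poly(A) polymerase. Pde2a and Apobr were 2 of 6 genes of chromosome 7 among those 11, a chromosome that held 7.61% of the tested genes with a known position. The rest of the 6 were Gm1966, Trim12a, Trim5 and Trim34a, of which the Trim genes are related and may not be separate cases. The 11 were ranked on the values that chose the members, so nothing is read from that share. The genotype at Il21r and any other difference between the mouse lines on chromosome 7 cannot be told apart in these libraries.

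**Figure D2:**
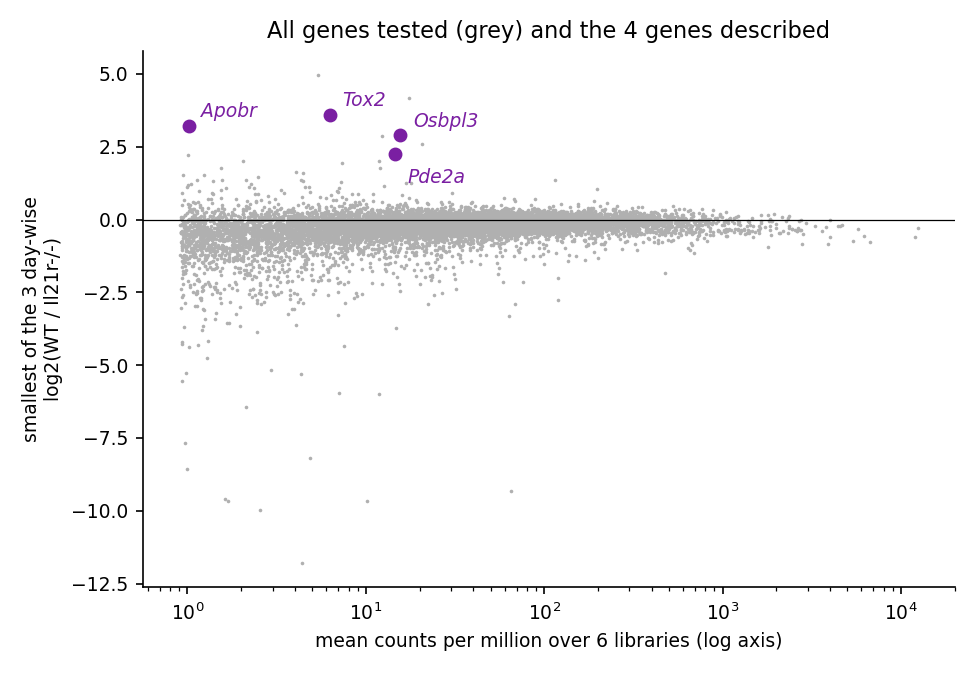
Smallest of the 3 day-wise log2 ratios of WT to Il21r-/- (vertical) against mean CPM over the 6 libraries (horizontal, log axis) for the 11005 genes tested (grey), with the 4 genes in purple. The 4 genes stand at 2.24 to 3.61, above nearly all others, and Apobr is at the low end of expression.

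The rule was set on the genotype difference on each day and not on the change between days, so the course over time was tested. The slopes of Tox2 and Apobr rest mainly on WT reads, since their Il21r-/- means were 0.700 and 0.134 CPM. Osbpl3 rose by 0.36 on the log2 scale per day in a slope common to both genotypes (SE 0.044, adjusted p = 0.00779, edgeR's quasi-likelihood test of the linear day term). Between days 7 and 14 its CPM increased 5.59-fold in WT (4.84 to 6.49) and 6.79-fold in Il21r-/- (4.29 to 11.3). Of all genes tested, 4.43% passed for day, 118 rising and 370 falling, and Osbpl3 was the 1 of the 4 genes that did. Its adjusted p was 0.106 without the WT library of day 7 and 0.0531 without that of day 14.

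Tox2 had a slope of 0.25 per day on the log2 scale (SE 0.069) and did not pass (adjusted p = 0.0925, quasi-likelihood test). From day 7 to day 10 its CPM was 4.35-fold higher in WT (3.50 to 5.46) and 2.24-fold higher in Il21r-/- (0.895 to 6.36). From day 10 to day 14 the ratio was 0.958 in WT (0.826 to 1.11) and 1.64 in Il21r-/- (0.875 to 3.15). In WT the increase thus lay between the first pair of days, and the few Il21r-/- reads did not separate either single step from no change. Over the whole span from day 7 to day 14 the ratio was 4.17 in WT (3.33 to 5.25) and 3.68 in Il21r-/- (1.57 to 9.98). That Il21r-/- counting interval lay above 1. With day as a factor in place of a line, the coding used for the replicate block, day 14 against day 7 was a contrast between days within each genotype and gave 0.30 per day with an adjusted p of 8.2e-07, a call that the linear day term did not give. Without the WT library of day 10 the linear slope was 0.28 per day (adjusted p = 0.00553, quasi-likelihood test). Leaving out any other library gave an adjusted p of 0.163 to 0.513 in that test. The slope was 0.12 per day without the WT library of day 7.

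Pde2a had a slope of -0.16 per day (SE 0.041, adjusted p = 0.0660, quasi-likelihood test). From day 7 to day 14 its CPM ratio was 0.624 in WT (0.553 to 0.704) and 0.272 in Il21r-/- (0.188 to 0.386). From day 7 to day 10 the ratio was 0.828 in WT (0.746 to 0.920) and 0.861 in Il21r-/- (0.677 to 1.09). From day 10 to day 14 it was 0.754 in WT (0.664 to 0.855) and 0.316 in Il21r-/- (0.218 to 0.449). Most of the Il21r-/- difference thus lay after day 10, while WT was lower at each step. With day as a factor the difference of day 14 from day 7 was -0.15 per day and passed (adjusted p = 0.0160). The linear slope passed without the Il21r-/- library of day 10 (-0.16 per day, adjusted p = 0.0100, quasi-likelihood test). Leaving out any other library gave an adjusted p of 0.0736 to 0.235 for that slope.

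Apobr had a slope of -0.10 per day (SE 0.062, adjusted p = 0.363, quasi-likelihood test). Its CPM on day 14 was 0.561 of that on day 7 in WT (0.336 to 0.912), and 0.920 in Il21r-/- with an interval from 0.123 to 6.87. The WT change came after day 10, at a ratio of 0.472 (0.284 to 0.763). Without the WT library of day 14 the slope was 0.031 per day.

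How far the genotype difference itself changed with day rests on the day-wise ratios that chose the 4 genes, so no test of that change is given for them. Of all genes tested, 0 passed (0%) in edgeR's quasi-likelihood test of a difference in slope between WT and Il21r-/-, and 0 passed with DESeq2's size factors or without the filter on low genes. In that edgeR test 118 of the 11005 genes had an unadjusted p under 0.05. This is a smaller share than the 0.05 that a test without any true difference would give. The 0 calls therefore do not show that the genotype difference of other genes stayed the same over the days.

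Levels between genes were compared per length, in RPKM, the CPM per kilobase of counted gene length. Averaged over the 3 days of WT, Tox2 had 7.10 RPKM, Pde2a 5.34, Osbpl3 4.07 and Apobr 0.527. In Il21r-/- the averages were 0.942 for Pde2a, 0.431 for Osbpl3, 0.418 for Tox2 and 0.0371 for Apobr. Tox2 was thus the highest of the 4 per length in WT, ahead of Pde2a, and below Pde2a in Il21r-/-. By day in WT, Pde2a led on day 7 (6.53 RPKM, against 2.24 for Tox2 and 1.20 for Osbpl3) and Tox2 led on day 14 (9.32 RPKM, against 6.69 for Osbpl3 and 4.08 for Pde2a).

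Relatives and pathway partners of the 4 genes were taken from 7 lists. Of their 47 tested genes other than the 4, 1 was higher in WT and 2 were higher in Il21r-/- over the 3 days (edgeR's quasi-likelihood test), which is 6.38% against the 5.92% of all genes. With day as a replicate block 13 of the 47 passed, 6 with WT above Il21r-/- and 7 the other way round, a share of 27.7% where 22.9% of all genes passed. Tox and Pde8a were called by both models, Cd36 was not called under the block, and 11 others were called under the block. No more than 2 of them passed in the likelihood ratio tests of single days, 0 on day 7, 2 on day 10 and 2 on day 14, where 1.07%, 3.1% and 3.28% of all genes did. The median log2 ratio of all genes was -0.0097.

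In the TOX family of HMG box proteins, Tox differed in the same direction as Tox2 and Tox4 did not pass. Tox, known as a regulator of T cell development and exhaustion, had a log2 ratio of 1.35 (SE 0.18, adjusted p = 0.00488, quasi-likelihood test), with day-wise values of 0.91, 1.36 and 1.78 on days 7, 10 and 14, and an adjusted p of 0.0508 without the WT library of day 14. Tox4, the highest of the family per length at 26.6 RPKM over the 6 libraries, had a log2 ratio of 0.12 (adjusted p = 0.513), and Tox3 had 0 reads in all libraries. Tox2 made up 14.1% of the summed RPKM of the 3 tested TOX genes in WT and 1.31% in Il21r-/-. Of the T cell markers, Cd4 had 1 to 12 reads in a library, Cd3e 0 to 2 and Cd3d 6 to 15. The 12 genes of that list summed to 184 to 228 CPM in WT and 190 to 271 CPM in Il21r-/-, nearly all of it Cd2 and Lck, and the part of T cell RNA in the Tox and Tox2 levels was not tested.

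Among the oxysterol-binding protein relatives of Osbpl3, 0 of 8 tested genes passed in the quasi-likelihood test, with a median log2 ratio of -0.056 and a range from -0.67 (Osbpl5) to 0.21 (Osbpl9). By unadjusted p under 0.05 there was 1, Osbpl5, by DESeq2 there were 0, and under the replicate block there were 2, Osbpl5 and Osbpl9. Osbpl9 was the highest of them per length, at 67.9 RPKM. Osbpl3 ranked 6th of 9 per length in WT and 8th in Il21r-/-. The proteins that ORP3 is known to work with, the endoplasmic reticulum anchors VAPA and VAPB, the small GTPases R-Ras and R-Ras2, the lipid phosphatase SAC1 and the kinase PI4KA, gave 0 of 6 genes that passed, with log2 ratios between -0.20 (Rras2, the highest per length at 98.5 RPKM) and 0.17 (Pi4ka). By unadjusted p, by DESeq2 and under the replicate block there were also 0.

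Of the 10 cyclic nucleotide phosphodiesterases tested besides Pde2a, 1 passed. Pde8a, which encodes a cAMP-specific enzyme, was lower in WT, with a log2 ratio of -1.24 (SE 0.28, adjusted p = 0.0343, quasi-likelihood test). That call was lost with DESeq2's Wald test (adjusted p = 0.0929) and without any of the libraries WT day 7 (0.0808), WT day 10 (0.131), WT day 14 (0.167) or Il21r-/- day 14 (0.105). The remaining 9 had log2 ratios from -0.78 (Pde4d) to 0.29 (Pde3b), among them Pde7a, the highest per length at 37.9 RPKM, with -0.011. Pde4d and Pde3b were called under the replicate block (adjusted p = 0.00787 and 0.0275). Pde2a ranked 5th of 11 per length in WT and 6th in Il21r-/-. Pde5a and Pde9a, which hydrolyse cGMP, had 1 and 0 reads over the 6 libraries.

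Most genes of the enzymes that make the substrates of PDE2A had few reads. Of 17 adenylyl and guanylyl cyclase genes 4 had 0 reads in all libraries and 3 were abundant enough to test, of which 0 passed, Adcy7 being the highest per length at 10.4 RPKM with a log2 ratio of 0.00015. The transmembrane guanylyl cyclase gene Gucy2c was the 1 with an unadjusted p under 0.05 and the 1 called under the replicate block (log2 ratio -0.88, adjusted p = 0.0354), and DESeq2 called 0. The soluble guanylyl cyclase genes Gucy1a1 and Gucy1b1 had 0 and 8 reads over all libraries. Of the 9 tested effectors, the kinase, exchange factor and CREB family genes, 0 passed, with log2 ratios from -0.51 (Rapgef4) to 0.35 (Prkar2a). Prkacb and Rapgef4 were the 2 with an unadjusted p under 0.05, DESeq2 called 0, and the replicate block called 3, Prkacb, Rapgef4 and Prkar2a. Prkar1a, a regulatory subunit of protein kinase A, was the highest at 219 RPKM.

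For Apobr, 1 of 9 other tested genes of lipoprotein uptake and handling passed. Cd36, a scavenger receptor for oxidized lipoproteins and fatty acids, was lower in WT with a log2 ratio of -2.20 (SE 0.30, adjusted p = 0.00545, quasi-likelihood test), the opposite of Apobr. The Cd36 call was lost under the replicate block (adjusted p = 0.107), without the filter on low genes (0.152), without the Il21r-/- library of day 10 (0.161) and without the WT library of day 14 (0.0668). Scarb1, a receptor for high density lipoproteins, had a log2 ratio of 0.49 (adjusted p = 0.0516) and was called by DESeq2's Wald test and under the replicate block (adjusted p = 0.00126). Lrp10, encoding another receptor of the family, was also called under the block (log2 ratio -0.25, adjusted p = 0.0275). Apoe was the highest per length at 297 RPKM, with a log2 ratio of -0.024. Apob itself had 1 read over all libraries. The 11 myeloid markers summed to 8.47 to 14.6 CPM in WT and 12.6 to 20.4 CPM in Il21r-/-, with Csf1r at 14 to 43 reads in WT and 8 to 64 in Il21r-/-. Of the 4 that were tested, 1 was lower in WT (Cd68) and 0 were higher. Among those too low to test, Itgam had 18 to 30 reads in WT and 2 to 24 in Il21r-/-, and S100a8 0 to 16 and 3 to 4. Whether RNA of myeloid cells had a part in the Apobr level was not tested.

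**Figure D3:**
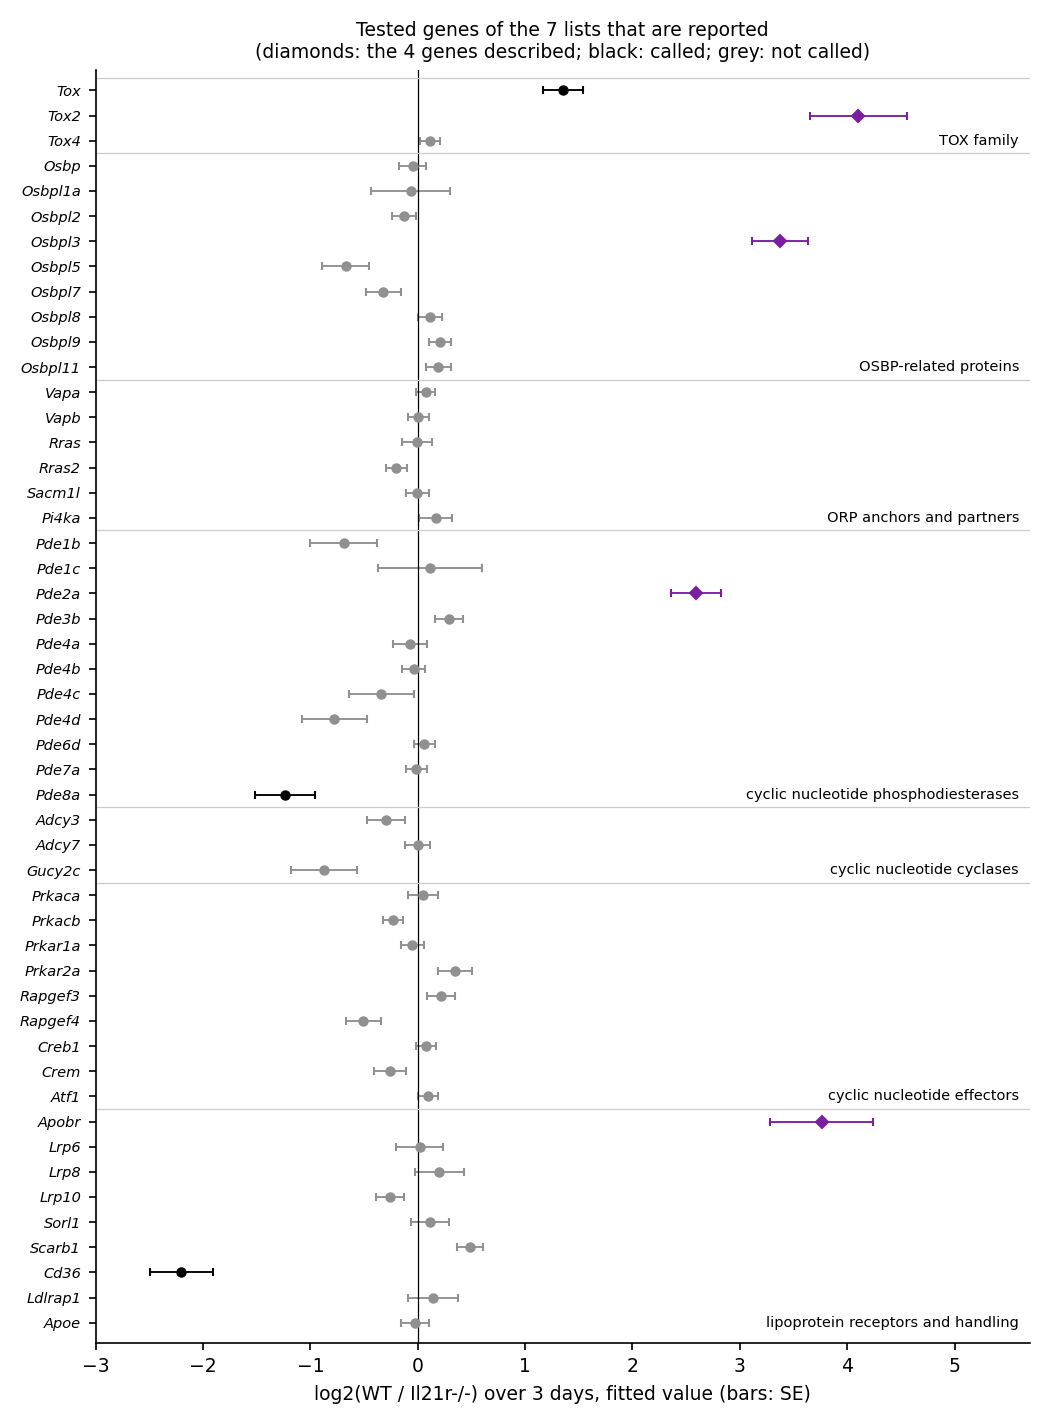
Fitted log2 ratio of WT to Il21r-/- over the 3 days (horizontal, bars for the SE) for the tested genes of the 7 lists that are reported here, with the 4 genes as purple diamonds, genes that passed the quasi-likelihood test in black and the rest in grey. The 4 diamonds lie at 2.59 to 4.10, while the 3 black points are Tox at 1.35, Pde8a at -1.24 and Cd36 at -2.20.

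Genes next to the 4 on their chromosomes were compared in the same way. For each gene the 5 nearest tested genes on either side were examined, and 0 of 10 passed beside each of Tox2, Pde2a and Apobr (quasi-likelihood test), at distances between gene starts of 13.7 kb (Cln3 beside Apobr) to 2256 kb. Each set of 10 had 1 gene with an unadjusted p under 0.05, Mybl2, Fchsd2 and Sult1a1 respectively, and DESeq2 called 0 in each. Their median log2 ratios were 0.097 for Tox2, 0.015 for Pde2a and -0.036 for Apobr. Beside Osbpl3, 2 of 10 passed, both higher in WT, 5 had an unadjusted p under 0.05, and DESeq2 called 4. Nothing is read from the counts by unadjusted p, which have no share over all genes beside them. All 10 genes beside Osbpl3 had a log2 ratio above 0, from 0.061 to 0.96 with a median of 0.31. Over the 40 neighbours of the 4 genes the 2 calls were 5%, against the 5.92% of all genes. The 2 that passed were Snx10, encoding an endosomal sorting nexin, 1231 kb above (log2 ratio 0.96, SE 0.17, adjusted p = 0.0137) and Igf2bp3, encoding an RNA-binding protein, 1208 kb below (0.94, SE 0.19, adjusted p = 0.0257). The nearest on each side of Osbpl3, Mpp6 and Cycs, had 0.37 and 0.21 and did not pass. With day as a replicate block 9 of the 40 passed, 7 of them higher in WT, which is 22.5% against the 22.9% of all genes. Of these 9, 5 lay beside Osbpl3, namely Snx10, Igf2bp3, Mpp6, Tra2a and Hnrnpa2b1, all higher in WT. Neither Snx10 nor Igf2bp3 passed without the WT library of day 14 (adjusted p = 0.130 and 0.167) or the Il21r-/- library of day 14 (0.0748 and 0.127), and Igf2bp3 was also lost without WT day 10 (0.0665) or Il21r-/- day 7 (0.0521).

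**Figure D4:**
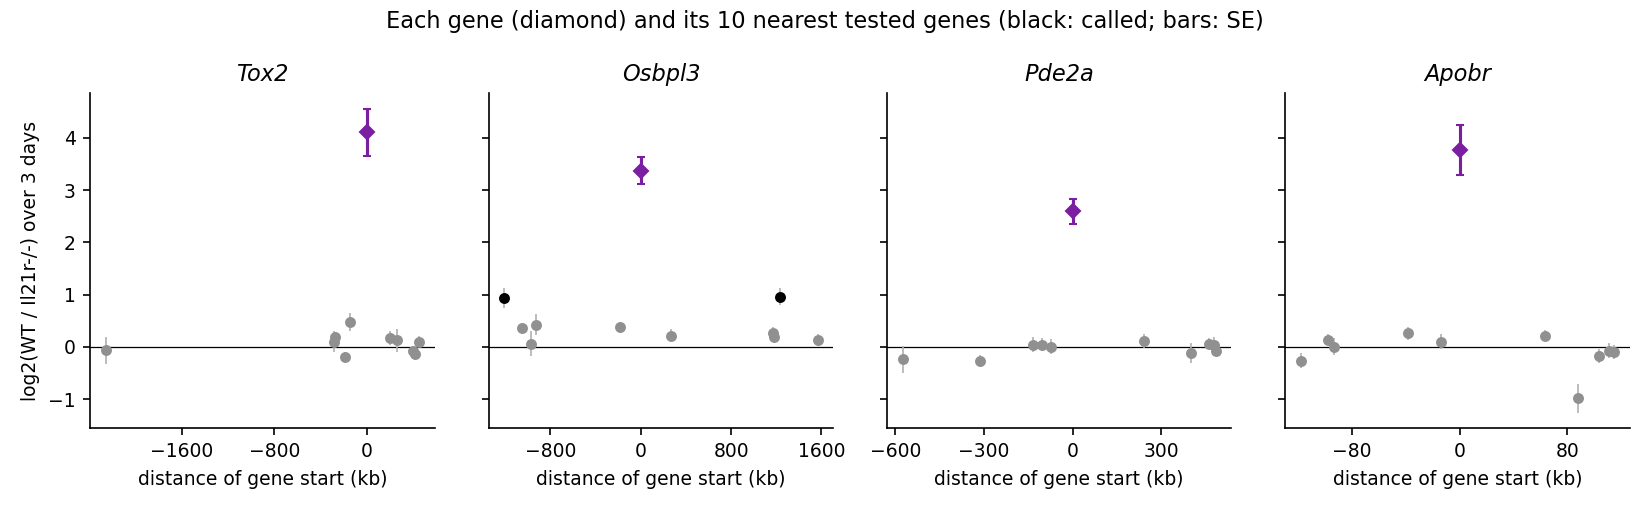
Fitted log2 ratio of WT to Il21r-/- (vertical, bars for the SE) for each of the 4 genes (purple diamonds) and its 10 nearest tested genes, against the distance between gene starts in kb (horizontal, negative towards lower coordinates). Black points passed the quasi-likelihood test: Snx10 at 0.96 and Igf2bp3 at 0.94 beside Osbpl3.

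Apobr shares exonic bases with neighbours on the opposite strand, 442 of its 3779 with Cln3, a lysosomal membrane protein gene, and 103 with Il27, a cytokine subunit gene. Cln3 had 375, 292 and 191 reads in WT and 246, 294 and 249 in Il21r-/-, a log2 ratio of 0.097 (adjusted p = 0.757, quasi-likelihood test). Neither the strand setting of the counting nor its handling of shared bases is given in the sources used here, so reads from these bases cannot be assigned. Pde2a shares 3955 of its 6149 annotated exonic bases with Gm45837, a predicted gene on the same strand that the counted annotation does not list. Tox2 and Osbpl3 overlap no other annotated gene.

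The genes most like each member were found by the root mean square difference between log2 CPM profiles over the 6 libraries, each centred on its mean. Of the 4, Tox2 and Osbpl3 were closest to each other, at a difference of 0.47 (Pearson r = 0.974, given as a description over 6 libraries that share genotype and day). Pde2a and Apobr were the next closest pair, at 0.62 (r = 0.922), and Osbpl3 and Pde2a the farthest apart, at 1.66 (r = 0.564).

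Atp10b was the nearest other gene to both Tox2 (0.86) and Osbpl3 (0.65). It held 19, 52 and 56 reads in WT on days 7, 10 and 14 and 2, 0 and 14 in Il21r-/-. Trim12a (0.91) and Spdya (0.93), an activator of cyclin-dependent kinases, followed for Tox2, and Unc13a (0.89) and Spdya (0.998) for Osbpl3. The profile shared by Tox2, Osbpl3 and Atp10b was lowest on day 7 in WT.

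Pde2a had closer matches than Tox2 or Osbpl3. They were Il2rb (0.38), encoding the beta chain of the IL-2 and IL-15 receptors, Tbx21 (0.48), encoding the transcription factor T-bet, and Tgfb3 (0.50), encoding a TGF-beta ligand. Il2rb held 91, 109 and 69 reads in WT and 19, 10 and 5 in Il21r-/-. Tbx21 held 55, 43 and 21 reads in WT and 20, 10 and 3 in Il21r-/-. In both genotypes Pde2a, Il2rb and Tbx21 were lowest on day 14.

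Apobr was nearest to Trim5 (0.33), Trim34a (0.38) and Hgsnat (0.50), a lysosomal acetyltransferase gene. Trim5 held 678, 523 and 430 reads in WT and 78, 67 and 61 in Il21r-/-. Hgsnat held 638, 512 and 335 reads in WT and 88, 100 and 115 in Il21r-/-. Trim5 and Trim34a, like Apobr, lie on chromosome 7, and Hgsnat on chromosome 8.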

How the data were processed

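RNA-seq was done on switched, hapten-binding GC B cells of WT and Il21r-/- mice, with 1 library per genotype on each of days 7, 10 and 14. The libraries were made with Illumina TruSeq kits. The authors aligned reads to mm10 with Rsubread, assigned them with featureCounts to its inbuilt RefSeq genes (CASAVA 1.8.2 is also named in the submitters' processing notes), pooled technical replicates, and deposited raw counts per gene with gene lengths. The 6 single-library tables were identical to the series table. The deposited counts are unnormalized, and strand and multi-mapping settings are not given in the sources used here. Totals of 21353438 to 27435124 counts per library set the counting precision.

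Symbols and positions came from RefSeq GRCm38.p6 (25275 identifiers) and GENCODE M21 (18 more). The other 1886 identifiers held 1.57 to 2.24% of counts. Ig variable genes, Xist, Y-linked genes and those with an average log2 CPM under 0 were left out, which left 11005. With R 4.3.3 and edgeR 4.0.16, TMM factors were computed and robust dispersions were estimated on the design of each quasi-likelihood test. Those tests gave genotype, day and genotype by day effects. Likelihood ratio tests of the single days used dispersions from genotype plus linear day. The adjusted p is Benjamini-Hochberg over the genes tested in each fit, 11005 in the main one, with a threshold of 0.05. That set was another one without the filter, with a library left out, and with DESeq2's Wald test, which applies its own filter. Log2 ratios used a prior count of 0.125 and log2 CPM profiles one of 2. CPM and RPKM used TMM-scaled library sizes and the deposited lengths. Counting intervals are exact at 95% (Poisson for a level, conditional binomial for a ratio).

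The members and gene lists were chosen with earlier results of these data known. Genes named singly were the 4 members, Il21r, the 3 genes of most similar profile, called or overlapping genes among 5 neighbours on each side, called genes and the highest gene of each list, and the 2 genes next in rank on each side. Other list genes and markers named were chosen after their values were seen, as ends of a range or for a known role. Some list genes are not reported singly here.

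The day pairs libraries of different genotype. After each genotype's mean was removed, same-day libraries correlated over the 11005 genes, with r = 0.64 for day 7, 0.413 for day 10 and 0.645 for day 14. Alternatives were day as a replicate block, DESeq2 1.42.0, its size factors, no filter, a prior count of 2, the linear day term kept in the single-day tests, and each library left out in turn. Since each condition had 1 library, p-values measure the spread around the fitted model. The fits were tested on simulated counts.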

Additional observations from a re-analysis of the deposited data

How the results depend on the processing

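The sign of the log2 ratios of WT to Il21r-/- was set by the choice of the 4 genes. These ratios stayed positive under every alternative run, from which nothing is read. Leaving out 1 library at a time they ranged from 3.60 to 4.60 for Tox2, 3.07 to 3.74 for Osbpl3, 2.27 to 2.82 for Pde2a and 3.56 to 4.09 for Apobr, which fell below the filter without the WT library of day 7 or that of day 10. With a prior count of 2 the Apobr value was 3.19. Apobr is the gene that depth limits most, with 3 or 4 reads in each Il21r-/- library.

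Counts of calls depended on the libraries and the model. The genotype count over 3 days was 651, with 136 to 2138 when a library was left out (136 without WT day 14, 2138 without Il21r-/- day 10). It was 1028 without the filter, 951 with DESeq2's Wald test and 2519 with day as replicate block. The day trend count was 488, with 0 to 2159 (0 without WT day 7, 2159 without Il21r-/- day 10), 880 without the filter, 870 with DESeq2's Wald test and 2880 for day 14 against day 7 with day as a factor. Genes whose slope differed between genotypes numbered 0, with 0 to 11 when a library was left out (11 without WT day 7). On day 10, 722 genes passed with the linear day term kept, against 341. Relatives and partners that passed numbered 3, with 0 to 8 (0 without WT day 14, 8 without Il21r-/- day 10) and 13 with the block. Neighbours that passed numbered 2, with 0 to 7 (0 without WT or Il21r-/- day 14, 7 without Il21r-/- day 10), 4 without the filter, 4 with DESeq2 and 9 with the block. The cause of these shifts was not tested.

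With DESeq2's Wald test the slopes of Tox2 (adjusted p = 0.00223) and Pde2a (0.00205) passed, and Pde2a also without the filter (0.0221). Leaving out 1 library, the Apobr slope ranged from -0.12 to 0.031, the latter without WT day 14. Under the block 11 relatives and partners, 7 neighbours and 9 markers gained a call, and 1 gene, Cd36, lost it.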
